A study of Danio rerio with 4 samples.

Results

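The Iroquois genes irx1a, irx4a and irx5a were each measured by 1 probe set, so these members are 3 of the 8793 genes that had a single symbol on the array. They were found by their gene symbols, updated through Entrez identifiers (403019 for irx1a, 402999 for irx4a and 573346 for irx5a). RNA came from hearts of wild-type zebrafish embryos at 48 hours post fertilization, drawn out by syringe together with tissue around them. The SU5402 group was kept in 10 μM SU5402, an inhibitor of FGF receptor kinases, diluted from a 1 mM stock in DMSO. The DMSO group consisted of sibling embryos in 1% DMSO. There were 2 replicates per group, with 1 Affymetrix Zebrafish array for each replicate, and treatment began at a time that the labels do not give. Nothing in the labels says whether replicates came from separate clutches, so the p-values rest on a spread that may be technical.

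Iroquois proteins are transcription factors with a homeodomain of the TALE class, which carries an extra loop between its first helices, and with a short conserved stretch called the Iro box. Their genes lie in conserved clusters and were first known for patterning sense organs in the fly and, in vertebrates, the neural plate and brain. In the heart of chick and mouse, Irx4 is restricted to the ventricle, where in the chick it favours ventricular and represses atrial myosin. Mouse Irx5 shapes the gradient of repolarisation across the ventricular wall. Because these genes are also used in brain and retina, a sample of heart with surrounding tissue can hold Iroquois RNA from several sources. The comparison asked how transcripts of the heart region differ when FGF receptors are inhibited. The study is known for following an FGF-dependent adhesion molecule in the outflow tract, the vessel end of the ventricle.

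All 3 genes were higher after SU5402. For irx4a, the probe set intensity was 1370.2 and 467 in SU5402 replicates 1 and 2, against 176 and 278 in DMSO replicates 1 and 2. Both SU5402 arrays lay above both DMSO arrays, and SU5402 replicate 1 stood far above the other three. On the log2(intensity + 16) scale, where 16 is a pseudocount that understates the change of dim genes, irx4a averaged 9.68 ± 1.07 in SU5402 and 7.89 ± 0.43 in DMSO (SD, n = 2 each). The difference was 1.78 (SE 0.56), or 3.44-fold, with a 95% interval of 0.40 to 3.17. Intensity in bulk tissue cannot tell a change in RNA per cell from a change in the number of cells that make it.

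irx1a, which in zebrafish is needed for the retina and is also transcribed in the ventricle, had intensities of 2662 and 1189 in the SU5402 arrays, against 858 and 680.3 in the DMSO arrays. Its groups did not overlap either, and again SU5402 replicate 1 was the highest. The log2 means were 10.81 ± 0.81 in SU5402 and 9.61 ± 0.23 in DMSO (SD, n = 2 each), a difference of 1.2 (SE 0.46) or 2.30-fold, with a 95% interval of 0.08 to 2.33.

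irx5a had the smallest difference of the 3 and the closest pair of SU5402 arrays. Its intensities were 525 and 429 in SU5402, against 322 and 252 in DMSO. The SU5402 arrays differed from each other by 1.22-fold and the DMSO arrays by 1.28-fold, while the lower SU5402 array was 1.33-fold above the higher DMSO array. The log2 means were 8.94 ± 0.20 in SU5402 and 8.23 ± 0.24 in DMSO (SD, n = 2 each), a difference of 0.70 (SE 0.32) or 1.63-fold, with a 95% interval of -0.09 to 1.5.

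**Figure D1:**
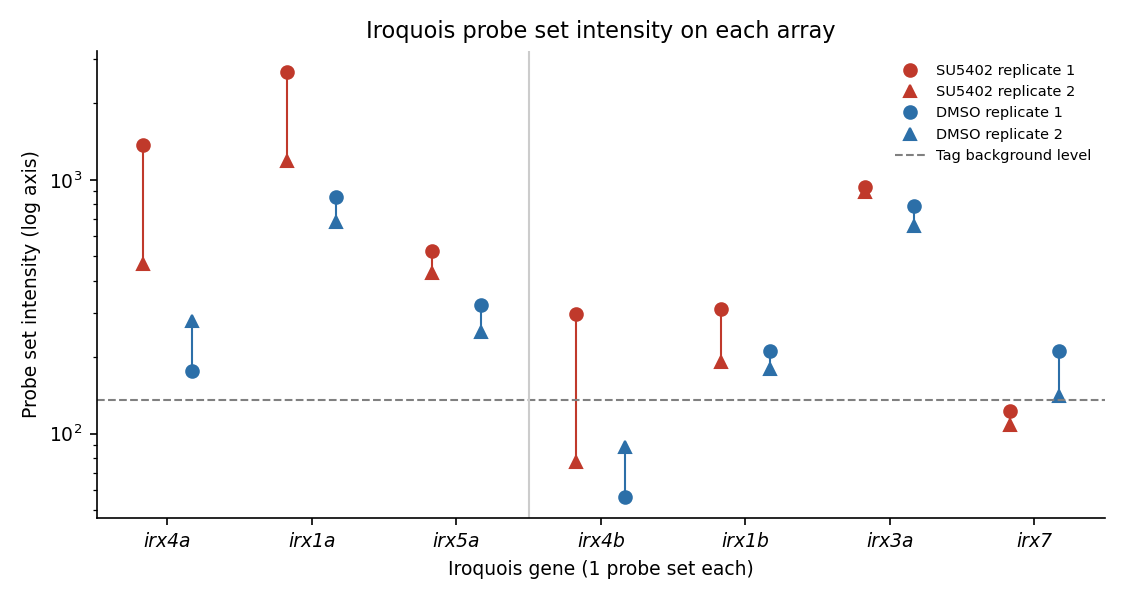
Probe set intensity (log axis) of 7 Iroquois genes on each array, with SU5402 in red left of DMSO in blue, circles for replicate 1 and triangles for replicate 2; vertical lines join the 2 arrays of a group and the dashed line is the Tag background level (136, defined in the text). The 3 genes left of the grey line, and irx3a right of it, have both SU5402 arrays above both DMSO arrays, as in 22.2% of all probe sets.

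None of the 3 differences passed limma at an adjusted p of 0.05, with Benjamini-Hochberg adjustment across the 15502 probe sets of the array. The adjusted p in limma was 0.298 for irx4a (0.0197 before adjustment), 0.36 for irx1a (0.0398 before adjustment) and 0.439 for irx5a (0.0723 before adjustment). No other probe set passed in limma (0 of 15502, that is 0%, lowest adjusted p = 0.255), although 2008 had an unadjusted p under 0.05. Of the 3 Iroquois genes, 2 had an unadjusted p under 0.05 as higher, against 6.74% of all probe sets. Both SU5402 arrays lay above both DMSO arrays in all 3, against 22.2% of all probe sets, and a difference above 0, which all 3 had, was held by 49.2%. irx4a and irx1a were among the 5.81% of probe sets that were higher by at least 1 log2 unit. An exact two-sided permutation test of each difference gave p = 0.333, the smallest that 2 against 2 arrays allow, which cannot reach 0.05.

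Set among all probe sets, the difference of irx4a exceeded 99.5% of the others, that of irx1a 96.7% and that of irx5a 88.4%. The median difference of the 3 was 1.2, beside -0.01 over all probe sets and 0.32 for the 4 other Iroquois genes. Because the 3 were chosen with earlier results of these data known, these ranks and medians only describe them. On every array all 3 lay above 136 in intensity, which is the 95th percentile of 17 control probe sets named Tag, without a target in zebrafish RNA, and is called the Tag level here. Lying above that level does not take background out of a difference. Of the 3, irx4a came nearest to it, at 176 in DMSO replicate 1. The irx4a difference was 1.85 with a pseudocount of 1 and 1.61 with a pseudocount of 64. Among the 7409 probe sets above that level on all 4 arrays, the groups did not overlap as higher for 22.8%, and 7.61% were higher with an unadjusted p under 0.05.

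**Figure D2:**
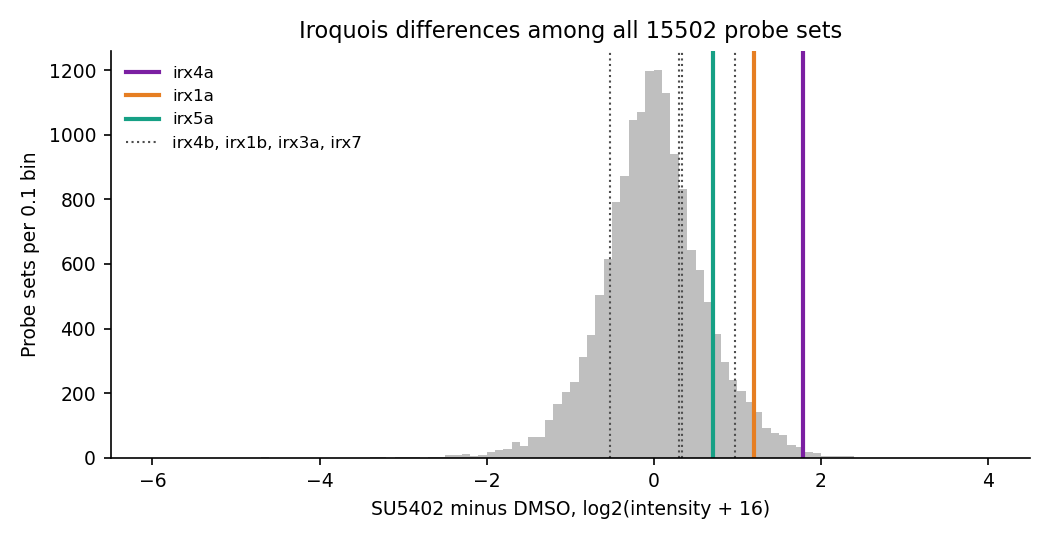
Number of probe sets (y axis, per bin of 0.1) by SU5402 minus DMSO difference in log2(intensity + 16) (x axis), over all 15502 probe sets, with coloured lines for irx4a (1.78), irx1a (1.2) and irx5a (0.70) and dotted lines for the other 4 Iroquois genes. The irx4a line stands in the thin right tail and the irx5a line on the shoulder.

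The size of the irx4a and irx1a differences rested on SU5402 replicate 1. Taking each SU5402 array against each DMSO array, irx4a differed by 2.24 to 2.85 for SU5402 replicate 1 and by 0.72 to 1.33 for SU5402 replicate 2. The same spans were 1.62 to 1.94 and 0.46 to 0.79 for irx1a, and 0.68 to 1.01 and 0.39 to 0.73 for irx5a. All 12 of these array pairs were above 0, which follows from the lack of overlap given above and adds nothing to it. Without SU5402 replicate 1 the differences were 1.02 for irx4a, 0.63 for irx1a and 0.56 for irx5a, and without SU5402 replicate 2 they were 2.54, 1.78 and 0.85. The order of the 3 genes was the same in both settings. The replicates of irx4a also parted within DMSO, where replicate 1 was the lower by 0.61, while irx1a and irx5a were higher in DMSO replicate 1 by 0.33 and 0.34.

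RefSeq holds 11 Iroquois genes of zebrafish, and 4 more of them had a named probe set. irx4b, the second copy of irx4 left by the teleost genome duplication, had intensities of 295 and 77.6 in SU5402, against 56.5 and 88.8 in DMSO. Its groups overlapped and only SU5402 replicate 1 was above the Tag level, and the difference of 0.97 (SE 0.61) was 0.10 without that array. irx1b, the copy of irx1a, which acts with irx7 in the early hindbrain of zebrafish, had 311 and 191 in SU5402, against 211 and 179 in DMSO. Its difference was 0.31 (SE 0.36), the groups overlapped, and without SU5402 replicate 1 it was at -0.02.

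irx3a, the zebrafish counterpart of a mouse gene of the ventricular conduction system, had 936 and 892 in SU5402, against 791 and 656 in DMSO. These groups did not overlap, but the difference was only 0.34 (SE 0.31). irx7, a gene of hindbrain and retina, was the 1 family member with a lower value after SU5402, at 123 and 108 against 212 and 140.5 in DMSO. Both SU5402 arrays lay below both DMSO arrays, as in 21.8% of all probe sets. Both SU5402 arrays of irx7 were also under the Tag level, so the difference of -0.53 (SE 0.34) is partly set by background. In limma the adjusted p of these 4 genes ran from 0.569 to 0.781, and their median difference was 0.32.

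**Figure D3:**
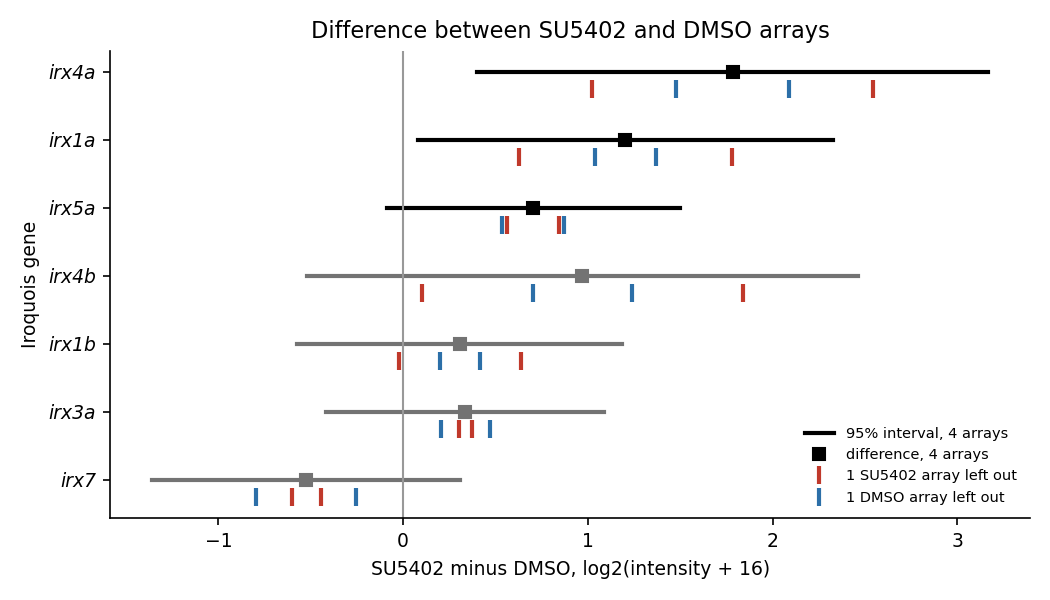
SU5402 minus DMSO difference in log2(intensity + 16) (x axis) for 7 Iroquois genes (rows), with squares for the fit to 4 arrays, horizontal bars for its 95% interval and ticks below for the differences with 1 SU5402 array (red) or 1 DMSO array (blue) left out. The intervals of irx4a and irx1a lie above 0 before any adjustment, and the ticks of irx5a, from 0.54 to 0.87, are the closest together of the 3.

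Copies of one ancestral gene can be set against each other within an array, where array scaling cancels. The log2 ratio of irx1a over irx1b was 3.03 and 2.54 in SU5402, against 1.94 and 1.84 in DMSO. It was higher in SU5402 by 0.90, with no overlap. The ratio of irx4a over irx4b was 2.15 and 2.37 in SU5402, against 1.41 and 1.49 in DMSO, a change of 0.81, also with no overlap. With irx4b under the Tag level on 3 arrays, that change is partly set by background. The absolute size of such a ratio depends on the probes and has no meaning of its own, and these 2 changes were not tested beyond overlap. Single probe sets did not overlap as higher in 22.2% of all, and no such share was counted for ratios.

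In the RefSeq gene order (assembly GRCz12tu), irx4a, irx2a and irx1a lie in this sequence with tars2, which encodes a mitochondrial threonyl-tRNA synthetase, between irx2a and irx1a. irx6a, irx5a and irx3a are direct neighbours in a second cluster. Within the first cluster the 2 measured genes had the 2 largest differences of the family, and within the second irx5a and irx3a were at 0.70 and 0.34. Outside the clusters, the nearest genes with a probe set on one side of irx4a were slc6a3, the dopamine transporter gene, and nrsn1, which encodes the neuronal vesicle protein neurensin. nrsn1 had 849 and 603 in SU5402, against 343 and 268 in DMSO, a difference of 1.2 (SE 0.34) without overlap (19.3% of all genes). slc6a3 was not above the Tag level on any array and was at -0.38, and sox4b, a further neighbour at -0.10, was equally dim. On the far side of irx1a, sim1a and hpxb were under the Tag level on all arrays, at 0.54 and 1.00, and preb was at 0.34 with overlap.

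Around irx5a and irx3a, the gelatinase gene mmp2 was lower, with 396 and 1019 in SU5402, against 1065 and 1449 in DMSO, a difference of -0.95 (SE 0.50). lpcat2, an acyltransferase gene, was at -0.02, aktip at 0.24 and sall1a at 0.23, all with overlapping groups. slc12a4, a potassium-chloride cotransporter gene, was at 0.69 without overlap (19.3% of all genes). Only 1 of its 4 arrays was above the Tag level. Neighbours thus differed in both directions, and adjusted p-values in limma of all genes named around both clusters were 0.271 or higher.

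Other TALE homeobox genes include meis and pbx, whose proteins bind DNA as partners of many homeodomain factors. Of 17 listed, 13 were measured, 9 above and 4 below 0, with a median of 0.18 beside -0.08 over all 8793 genes. Both SU5402 arrays lay above both DMSO arrays for 5 of the 13 (19.3% of all genes) and below for 3 (26.3% of all genes). meis2b had 4144 and 2103 in SU5402, against 1030 and 886 in DMSO, a difference of 1.61 (SE 0.41). pbx1a was at 1.26 (SE 0.30), with its 2 further probe sets at 0.81 and 2.06, and pbx3b at 1.16 (SE 0.33). None of the 13 passed limma after adjustment over all probe sets, while 4 had an unadjusted p under 0.05 as higher (5.31% of all genes) and 1 as lower (8.04%). Without SU5402 replicate 1 the list median was -0.04 and without SU5402 replicate 2 it was 0.66.

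The genes listed for the ventricle, some of them factors of the heart more broadly, were of mixed sign. Of 9 listed, 5 were measured, 3 above and 2 below 0, with a median of 0.34. The ventricular myosin heavy chain gene myh7 (formerly vmhc) had 5627 and 6979 in SU5402, against 2647 and 569 in DMSO, a difference of 2.33 (SE 0.71). The cardiac homeobox genes nkx2.5 and nkx2.7 were at 1.06 (SE 0.39) and 0.34 (SE 0.44), and nkx2.5 was under the Tag level on all arrays. hand2, a bHLH factor of the heart and arches, was at -0.38 (SE 0.33), and hey2, a Notch target of the ventricle, at -0.02, under the Tag level throughout. Without SU5402 replicate 1 the list median was -0.05, and without DMSO replicate 2 it was 0.04. Without SU5402 replicate 2 it was 0.74, and without DMSO replicate 1 it was 0.75. Of the list, myh7 and nkx2.5 had an unadjusted p under 0.05 in limma as higher (2 of 5, beside 5.31% of all genes) and none passed after adjustment.

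Of 8 genes listed for the atrium, 5 were measured, with 3 above 0 and a median of 0.29. That median was 0.28 without SU5402 replicate 1 and 0.44 without SU5402 replicate 2. It was 0.71 without DMSO replicate 1 and 0.54 without DMSO replicate 2. The nuclear receptor genes nr2f2 and nr2f1a, which maintain atrial identity, were at 0.90 (SE 0.43) and 0.63 (SE 0.35). Both were higher without overlap, as were 19.3% of all genes. nr2f5, aldh1a2 and tbx5a were at -0.37, 0.29 and -0.40 with overlapping groups, and tbx5a was under the Tag level on all arrays. No member passed limma after adjustment and none had an unadjusted p under 0.05.

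Genes of repolarisation and conduction were listed because mouse Irx5 represses a potassium channel gene of the Kcnd family. Of 13 listed, 5 were measured, 4 of them above 0 without overlap (19.3% of all genes), and the median was 0.83. kcnd3, which encodes a channel subunit of the transient outward current, had 481 and 530 in SU5402, against 189 and 154 in DMSO, a difference of 1.48 (SE 0.31). In this gene SU5402 replicate 2 was the higher of its pair, unlike in irx4a, irx1a and irx5a. kcnh2a, the gene of a delayed rectifier channel, was at 1.21 (SE 0.37) and the connexin 43 gene gja1b at 0.83 (SE 0.30). The 3 had an unadjusted p under 0.05 in limma as higher (5.31% of all genes) and none passed after adjustment. kcnh6a and kcnd1 were under the Tag level on all arrays, at 0.64 and -0.19.

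The treatment was also read in targets and feedback inhibitors of the FGF pathway. Of 15 listed, 11 were measured, 8 below 0, with a median of -1.41. etv5b, an ETS factor gene and direct readout of the pathway, had 132 and 143 in SU5402, against 1975 and 2595 in DMSO, a difference of -3.90 (SE 0.32). etv4, etv5a and dusp6 were at -2.42, -2.25 and -1.81, and spry4 at -1.41, while second probe sets of etv5a and dusp6 were at -0.46 and -1.01. In the SU5402 arrays etv5b lay at the Tag level and etv4 under it. None of the 11 passed limma after adjustment, and 7 had an unadjusted p under 0.05 as lower (8.04% of all genes).

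Markers of heart muscle and of neurons and glia were mostly higher after SU5402, as the Iroquois genes were. Retina and lens markers were also mostly higher (6 of 7 above 0), but not without SU5402 replicate 1 (3 of 7). The remaining marker lists were lower or of mixed sign. Of 12 listed heart muscle markers, 10 were measured, and all 10 were above 0, with a median of 1.39. Of these, 9 had no overlap (19.3% of all genes). The median was 1.26 without SU5402 replicate 1 and 1.51 without SU5402 replicate 2. It was 1.59 without DMSO replicate 1 and 0.98 without DMSO replicate 2. ttn.2 was at 1.84, with its further probe sets at 0.36, 0.08 and 2.06. The summed intensity of the 10 markers was 36852 and 31103 in SU5402, against 15424 and 7400.4 in DMSO. The myosin light chain gene myl7, which defines heart muscle in zebrafish, had 9171 and 4702 in SU5402, against 3302 and 505 in DMSO, above the Tag level on every array, as were gata5, ttn.2, actc1a and myh7. tbx20 and nkx2.5 were under the Tag level on all arrays and tnnt2a on DMSO replicate 2. gata6 and tnnc1a were under it on SU5402 replicate 2 and both DMSO arrays.

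Of 17 listed neuron and glia markers, 16 were measured, 14 above 0 and 11 without overlap as higher (19.3% of all genes), with a median of 1.00. The neural crest gene sox10 and the glial gene gfap were lower without overlap (26.3% of all genes), at -0.76 and -0.56. gfap was above the Tag level only on DMSO replicate 1, so its difference is partly set by background. Without SU5402 replicate 1 the median was 0.53, and without SU5402 replicate 2 it was 1.52. Their summed intensity was 45055 and 23643 in SU5402, against 17947 and 15046 in DMSO. The synaptic gene snap25a was at 1.82 (SE 0.36), and the neuronal RNA-binding protein gene elavl4 at 1.67 (SE 0.37). Only the myelin gene mbpa was under the Tag level on all arrays. All 16 were higher in SU5402 replicate 1 than in SU5402 replicate 2, by a median of 0.99. irx1a and irx4a were higher there too, by 1.15 and 1.52. This order was not particular to neurons and glia. The median was 1.08 for retina and lens (6 of 7 higher), 0.76 for neural patterning (16 of 16) and 0.57 for other TALE genes (12 of 13). It was below 0 for epidermis and fin (-2.05), skeletal muscle (-0.37), blood (-0.33), FGF targets (-0.19) and pharyngeal cartilage (-0.16). The heart muscle markers differed between those arrays by a median of 0.31, and irx5a by 0.28. Between the DMSO arrays, heart muscle markers were higher in replicate 1 by a median of 0.67. Neuron and glia markers were also higher there, by a median of 0.26 (14 of 16). irx4a was lower in DMSO replicate 1 by 0.61, unlike the median of either list.

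Genes that pattern the neural tube gave a median of 0.24, with 11 of 16 measured above 0, and summed to 18836 and 10179 in SU5402, against 14825 and 15444 in DMSO. Without SU5402 replicate 1 that median was -0.17, with 6 of 16 above 0, and without SU5402 replicate 2 it was 0.47. gbx2, a homeobox gene of the anterior hindbrain, was at 1.24 (SE 0.46), and zic2a at -1.95 (SE 0.51). Retina and lens markers had a median of 0.61 (6 of 7 above 0), and summed to 4519 and 2272 in SU5402, against 2114 and 2159 in DMSO. Without SU5402 replicate 1 their median was -0.05, with 3 of 7 above 0, and without SU5402 replicate 2 it was 1.04. The retinal genes rx1, rx2 and pou4f2 were under the Tag level on all arrays. Pronephros markers had a median of -0.34, and 4 of the 6 measured were under the Tag level throughout. That median ran from -0.64 (without DMSO replicate 2) to 0.06 (without SU5402 replicate 2). Medians were -0.88 for 4 endothelial markers, -1.07 for 9 markers of epidermis and fin, -1.43 for 6 of skeletal muscle, -1.30 for 10 of pharyngeal cartilage and 0.13 for 9 of blood. Of the endothelial markers, fli1 was at -1.86 with its second probe set at 0.88, and kdrl at -1.11. The other endothelial markers, tek and tie1, were under the Tag level on all arrays. Epidermis and fin markers summed to 15625 and 48058 in SU5402, against 60054 and 77869 in DMSO. Their median was -0.08 without SU5402 replicate 1 (3 of 9 above 0), -2.09 without SU5402 replicate 2 and -0.56 without DMSO replicate 2. The skeletal muscle median was -0.71 without DMSO replicate 2 and -0.93 without SU5402 replicate 1, and the blood median ran from -0.03 (without SU5402 replicate 2) to 0.30 (without SU5402 replicate 1).

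**Figure D4:**
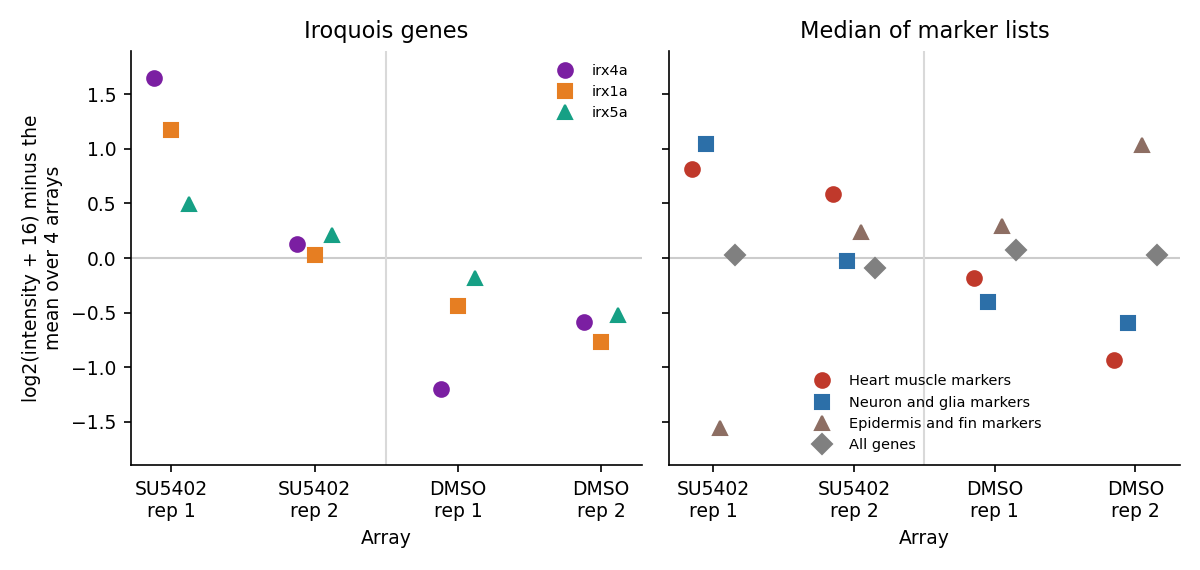
Log2(intensity + 16) on each array minus the mean over 4 arrays (y axis), for irx4a, irx1a and irx5a (left panel) and as medians of marker lists and of all genes (right panel), with SU5402 arrays left of DMSO arrays. In SU5402 replicate 1 irx4a stands at 1.65 and the neuron and glia median at 1.04, while in SU5402 replicate 2 they stand at 0.13 and -0.02.

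Relative to the neuron and glia median of the same array, irx4a stood at 0.61 and 0.16 in SU5402, against -0.79 and 0.01 in DMSO, still without overlap. irx1a stood at 0.13 and 0.05 in SU5402, against -0.03 and -0.17 in DMSO, also without overlap. Its difference was 0.19 in place of 1.2. How many of all genes would not overlap in this measure was not counted. irx5a stood at -0.55 and 0.23 in SU5402, against 0.22 and 0.07 in DMSO, with overlap. Relative to the heart muscle median, irx4a and irx1a overlapped between the groups, with differences of 0.52 and -0.06, and irx5a was lower in SU5402, at -0.32 and -0.38 against 0.00 and 0.41 in DMSO. These relative values were added after the profiles had been seen. The part of either tissue in the Iroquois differences was not tested.

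The genes whose profile lay closest to each Iroquois gene were sought by the root-mean-square difference of log2 values, centred on each gene's mean, over the 4 arrays. Nearest to irx1a was stmn1b, a stathmin gene of neurons, at 0.018, with 6729 and 2934 in SU5402, against 2139 and 1736 in DMSO. A second probe set of stmn1b had a SU5402 minus DMSO difference of 0.52, against 1.2 for the one used here. The next by profile distance were senp8, a protease gene that was under the Tag level on all arrays, and gata6, a GATA factor gene of heart and gut, at 0.023 and 0.053. gata6 was above the Tag level only on SU5402 replicate 1. Nearest to irx4a were the splicing factor gene rbfox1 (0.21), known from neurons and muscle, the LIM homeobox gene lhx1a (0.22) and the neuronal pentraxin gene nptx1l (0.22). rbfox1 had 1522 and 770 in SU5402, against 221 and 398 in DMSO, with DMSO replicate 1 the lowest, as in irx4a. nptx1l was under the Tag level on both DMSO arrays.

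Nearest to irx5a were the netrin gene ntn1a (0.027), plekhf1 (0.035) and zgc:66455 (0.036). Of these, plekhf1 and zgc:66455 were under the Tag level on both DMSO arrays and ntn1a on DMSO replicate 2. Such likeness over 4 arrays was shared by many genes, though the counts were lower for irx4a. Of 8786 genes outside the family, 520 (5.92%) were nearer to irx1a than irx4b was. For irx5a, 415 (4.72%) were nearer than irx3a, and for irx4a 54 (0.61%) were nearer than irx4b. Here irx4b and irx3a are the family genes with the nearest profile. Their distances were 0.38 (irx4b from irx1a), 0.41 (irx4b from irx4a) and 0.20 (irx3a from irx5a). The counts of nearer genes thus rest on unlike distances and do not rank the 3 genes. A Pearson correlation above 0.95 with the member over the 4 arrays was reached by 456 genes for irx1a (5.19%), 322 for irx4a (3.66%) and 406 for irx5a (4.62%). All points share the same 4 libraries.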

How the data were processed

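The deposited table held linear probe set intensities for all 4 arrays, and no other column. The algorithm, software and scaling behind the deposited intensities are not stated in the labels. Every array had the same trimmed mean, 500.1 with 2% of values cut from either end, and medians differed (173 to 184), which marks scaling to a shared mean. Arrays correlated across probe sets at r = 0.928 within SU5402, 0.964 within DMSO and 0.908 to 0.94 between groups. The number of arrays limits the precision.

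Symbols came from the platform annotation. Of 15502 probe sets, 10795 had 1 symbol, 135 several and 4572 none. For 10711 the symbol was taken from RefSeq by Entrez identifier, whether or not it changed. The 115 control probe sets were left out. Log2(intensity + 16) was fitted with limma 3.58.1 (lmFit, eBayes) in R 4.3.3 with treatment as the only term, two-sided, and adjusted p-values (Benjamini-Hochberg) cover all probe sets. The fit was tested on simulated data, drawn independently for each array, only for its mean differences. That does not test how many true changes pass the adjusted threshold. The probe set of highest mean stood for each listed gene.

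The members, the 16 gene lists, the tests and the alternatives were chosen with earlier results of these data known. Named were all Iroquois genes with a probe set, up to 3 genes of lowest p per list (5 for FGF, ventricle and atrium), the 3 nearest profiles of each member and its 3 nearest measured neighbours on either side. Other genes, named for being dim or defining a tissue, were chosen after their values were seen.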

Additional observations from a re-analysis of the deposited data

How the results depend on the processing

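Under 16 alternatives the differences of irx4a, irx1a and irx5a kept their sign and stayed above an adjusted p of 0.05 in limma. With all 4 arrays kept, the lowest adjusted p in limma was 0.192, 0.202 and 0.276. The sign could not turn when 1 array was left out, because the groups did not overlap. Leaving out dim probe sets, raising values to the Tag level, the eBayes options and the replicate block do not alter these 3 differences. With each array left out in turn they ran from 1.02 to 2.54, from 0.63 to 1.78 and from 0.54 to 0.87. In those settings 1 group is a single array, assumed to vary like the other pair. Under the other 12 alternatives they ran from 1.61 to 1.85, from 1.16 to 1.25 and from 0.62 to 0.78. An unadjusted p under 0.05 was met in 14, 10 and 3 of the 16. The count of all probe sets past the adjusted threshold ran from 0 to 3 with an array left out (3 without SU5402 replicate 2). It was 21 with values below the Tag background raised to it, where many probe sets have no spread left, and 0 when probe sets never above that level were also left out, a form added after the data were seen. With the replicate block it was 0, with 2582 at an unadjusted p under 0.05 in place of 2008, and the adjusted p was 0.22, 0.202 and 0.316 for irx4a, irx1a and irx5a in limma. Deviations of same-numbered arrays correlated at 0.28 across probe sets. With 2 pairs and no word on pairing in the labels, whether equal numbers mark paired samples was not settled.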
